A study of Rattus norvegicus with 24 samples.

Results

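Expression of 35 genes of macrophages and other leukocytes was examined in the tibialis anterior (TA) muscle of aged rats across a first period of disuse atrophy, recovery and a second period of disuse atrophy. The genes were chosen by symbol, without use of their measured values in the choice rule, and all 35 were found among the 13458 gene symbols of the RNA-seq table. Ptprc had 5 entries in the table and the entry with the highest mean was used, whereas the remaining 34 genes are described by 1 value per limb. All values are counts-per-million (CPM), the reads assigned to a gene scaled to a common total for each limb.

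Macrophages live in the connective tissue between muscle fibres, where they clear debris, present antigen and signal to satellite cells and fibroblasts. After injury or a large change in load, monocytes enter from the blood through the chemokine CCL2 and its receptor CCR2, mature under the growth factor receptor CSF1R and the transcription factor PU.1 (Spi1), and shift from inflammatory to repair-associated states. Many genes of this set are shared by all macrophages (Cd68, Csf1r, Adgre1, the C1q chains), others mark scavenging cells of the resident type (Cd163, Mrc1), and a further group (Gpnmb, Lgals3, Spp1, Trem2, Cd9) is known from macrophages that handle lipid and dead cells. Several are not restricted to macrophages, since Cd74, Lgals3, Cd9 and Gpnmb are also made by other cells.

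The animals were male rats of the Fischer strain (F344) aged 23 ± 1 months. Tetrodotoxin (TTX), a sodium channel blocker that silences the nerve without cutting it, was delivered to the left common peroneal nerve by an osmotic pump. The atrophy group (left limbs, n = 3) had 6 to 7 days of TTX, the recovery group (left limbs, n = 3) had a further 9 days without TTX, and the repeated atrophy group (left limbs, n = 3) then had a second TTX period of 5 to 6 days. The control group was the untreated right limb of the same 9 TTX rats, so the controls were not separate animals. The right limb was not operated on. A further 3 sham rats, 1 for each of the 3 time points, had the surgery without TTX and gave 3 left and 3 right limbs. Sham limbs of the same side therefore differ in time point as well as in animal. Whole muscle was measured, so fewer cells of a type and less RNA of that gene per cell cannot be told apart in any value given here.

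Depth was not stated in the table, but the smallest steps between low values corresponded to 18.9 to 30.9 M reads per limb, and a count of 3 reads then corresponded to 0.0971 to 0.159 CPM. The muscle identity of the samples was clear, as all 13 muscle fibre markers were found and summed to at least 113918 CPM in every group. Of the 4 genes used as pan-leukocyte markers, all were detected, and their sum stood apart in both limbs of sham animal 1, at 166 CPM on the left and 159 CPM on the right, against 9.67 to 64.6 CPM in the control, atrophy, recovery and repeated atrophy limbs. T and NK cell markers summed to 423 and 372 CPM in the same animal. The differences of the sham limbs are given below with and without this animal. The left limb of atrophy animal 2 also stood apart from its group, with 234125 CPM over the fibre markers against 113918 and 136887 CPM in the other 2 atrophy limbs.

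The sequence around the transcription start is shown for 4 members. A RefSeq promoter (250 bases before to 50 bases after the start, GRCr8 build, which is newer than the rn7 build of the expression table) was matched for 25 of the 35 genes. The genes with no match were Itgb2, Tyrobp, Fcer1g, C1qc, Aif1, Spi1, Lgals3, Cd4, Ccl2 and Msr1. Capitals mark GAGGAA, the core letters of sites bound by PU.1 and related ETS factors, and CATGTG, the M-box letters bound by MITF and related factors, each searched on both strands (TTCCTC and CACATG are the same letters on the other strand) and counted separately. Cd68 and Itgam are shown as macrophage identity genes of the recovery response, at chr10:54882392-54882691 on the minus strand and chr1:192089342-192089641 on the plus strand. Ctss is shown because it rose after both atrophy and recovery (chr2:185775146-185775445, plus strand), and Gpnmb because it had the largest differences of the set (chr4:79340878-79341177, plus strand).
Cd68: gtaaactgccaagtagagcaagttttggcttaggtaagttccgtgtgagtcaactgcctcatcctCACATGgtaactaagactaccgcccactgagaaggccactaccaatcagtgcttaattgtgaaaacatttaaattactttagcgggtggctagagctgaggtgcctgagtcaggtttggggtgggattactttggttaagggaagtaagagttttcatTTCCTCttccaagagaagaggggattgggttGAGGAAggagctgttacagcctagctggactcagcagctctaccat
Itgam: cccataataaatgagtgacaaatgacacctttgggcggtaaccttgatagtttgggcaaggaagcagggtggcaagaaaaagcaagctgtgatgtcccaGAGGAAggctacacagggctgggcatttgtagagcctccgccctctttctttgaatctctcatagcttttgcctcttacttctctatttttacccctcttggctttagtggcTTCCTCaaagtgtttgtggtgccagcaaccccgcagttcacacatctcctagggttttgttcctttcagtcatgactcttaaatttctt
Ctss: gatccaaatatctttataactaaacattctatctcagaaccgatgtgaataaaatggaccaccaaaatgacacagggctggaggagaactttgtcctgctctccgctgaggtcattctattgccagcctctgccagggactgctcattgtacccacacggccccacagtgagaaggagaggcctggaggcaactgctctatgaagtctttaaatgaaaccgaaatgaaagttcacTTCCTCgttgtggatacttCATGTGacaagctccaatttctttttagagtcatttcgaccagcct
Gpnmb: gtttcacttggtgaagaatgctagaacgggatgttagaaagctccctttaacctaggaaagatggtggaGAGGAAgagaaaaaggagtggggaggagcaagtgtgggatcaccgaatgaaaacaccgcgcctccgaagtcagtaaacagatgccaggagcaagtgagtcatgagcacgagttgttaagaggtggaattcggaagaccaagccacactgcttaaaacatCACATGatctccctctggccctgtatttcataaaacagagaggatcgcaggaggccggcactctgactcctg

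GAGGAA was found in 19 of the 25 member promoters, or 76%, against 27.6% of 33469 promoters of all genes. CATGTG was found in 7 of 25, or 28%, against 14% of all promoters, and the 7 genes were Cd68, Mrc1, C1qa, C1qb, Ctss, Gpnmb and Cd9. The related E-box CACGTG was in 0 of 25 member promoters and in 6.42% of all promoters. A match describes letters in this window and is not evidence of a bound site.

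The members covered a wide range of levels. Per kilobase of transcript, the mean over the 9 control limbs was highest for the invariant chain Cd74 (67.8 CPM per kb), the lysozyme Lyz2 (46.5 CPM per kb) and Gpnmb (37.9 CPM per kb). Cd9, the 3 C1q chains, Lgals3 and Ctss followed at 10.5 to 19.4 CPM per kb. The lowest were the lipid-sensing receptor Trem2 (0.387 CPM per kb), the co-stimulatory ligand Cd86 (0.262), the T cell receptor chain Cd3e (0.205) and the fractalkine receptor Cx3cr1 (0.0699). Over all 24 limbs Gpnmb reached 106 CPM per kb, next to 105 for Cd74. Cd3e and Cx3cr1 lay near the level of 3 reads in most limbs, and differences between their values are limited by counting error.

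Group differences were tested with limma on log2(CPM + 1) over 14031 table entries and 18 limbs, and a gene was called when its fold change was at least 1.2 and its adjusted p at most 0.05 (Benjamini-Hochberg over all entries). Log2 fold changes on this scale understate the change of low genes. The deposited values shifted as a whole in the atrophied limbs: the median log2 difference over all entries was 0.22 after atrophy and 0.20 after repeated atrophy, against 0.02 after recovery. Rescaling the limbs by the median of ratios brought these medians to 0.00, -0.01 and 0.01, and rescaled values are given where they change the call of a member. After atrophy 71.9% of all entries were higher than control as deposited and 49.7% after rescaling, after recovery 53.1% and 52.0%, and after repeated atrophy 67.8% and 48.4%.

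**Figure D1:**
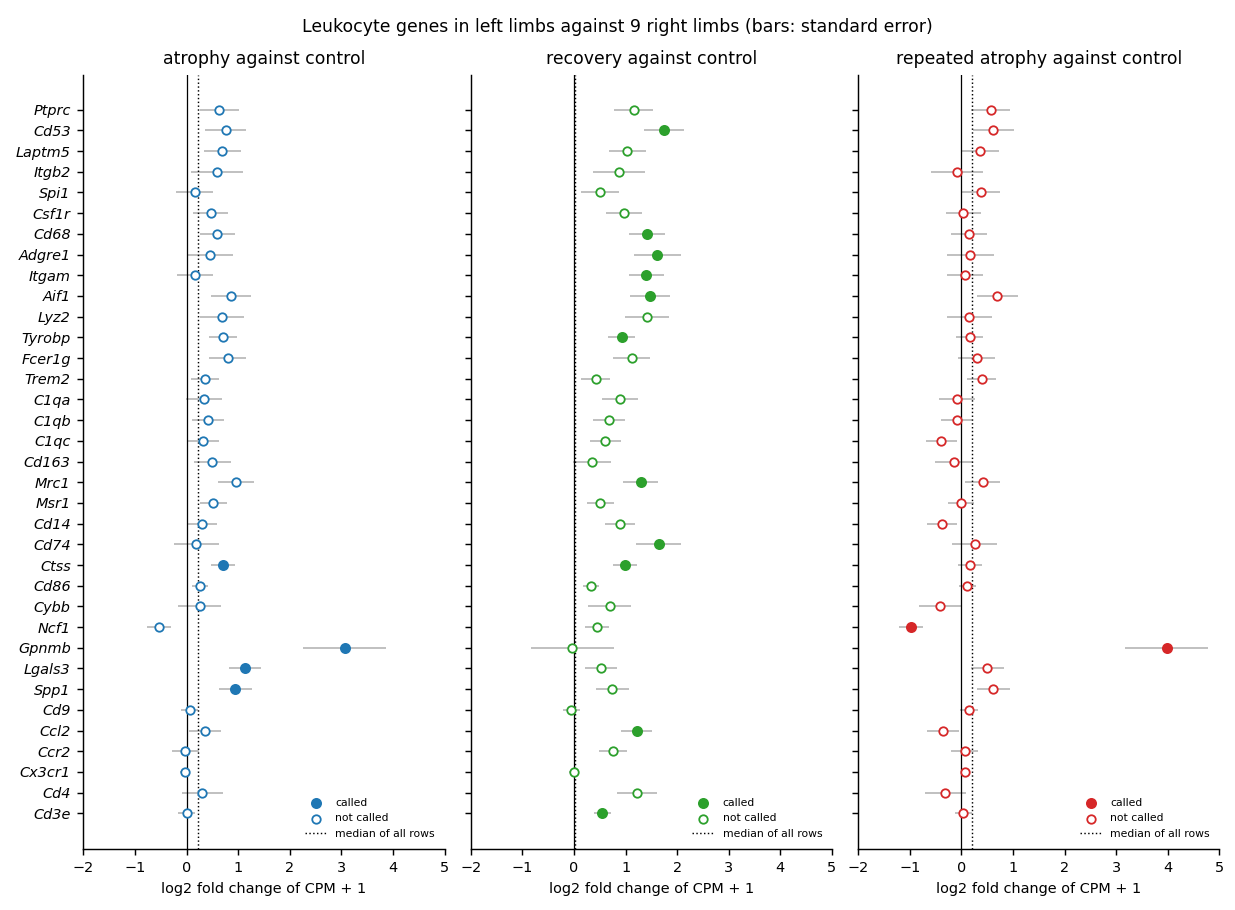
Log2 fold change (± SE, on log2(CPM + 1)) of the 35 members against the 9 control limbs after atrophy, recovery and repeated atrophy (3 limbs each), with filled points for called genes and a dotted line at the median of all table entries. The points shift to the right in the recovery panel, where 11 members were called, and Gpnmb lies far to the right in the atrophy and repeated atrophy panels only.

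In recovery, 11 of the 35 genes rose against control and none fell: Cd53, Cd74, Adgre1, Aif1, Cd68, Itgam, Mrc1, Ccl2, Ctss, Tyrobp and Cd3e. Their log2 fold changes ran from 0.55 to 1.74 and their limma adjusted p from 0.0145 to 0.0475. Of all entries tested, 4.4% were called higher and 3.33% lower in this comparison. The median over the 35 members was 0.89 on the log2 scale against 0.02 over all entries, and 33 of 35 members had a positive difference. After rescaling, 18 members were called higher and 0 lower, against 6.28% and 5.82% of all entries. The added genes were Ptprc, Laptm5, Csf1r, Lyz2, Fcer1g, Cd14 and Cd4, whose adjusted p had been 0.051 to 0.088 on the deposited values. When the animal was added as a block, so that each left limb was read against its own right limb, all 11 genes kept a positive sign (log2 0.49 to 1.61) but none passed, with adjusted p from 0.150 to 0.292. Under that block, 6 entries of the whole table were called higher and 3 lower in recovery. A fit with the animal as a random effect instead called 12 members higher and 0 lower, among 673 entries higher and 501 lower. The recovery calls also depended on which limbs were fitted, since 0 members were called without recovery animal 1 or without recovery animal 3. Without the right limb of repeated atrophy animal 2 there were 6. Leaving out a limb lowers the chance of a call for every entry. The share of all entries called in these fits is not given here.

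Among macrophage identity genes, Cd68 (rn7 chr10:54381814-54383694, minus strand), a lysosomal membrane glycoprotein, measured 7.69, 4.58 and 12.0 CPM in the 3 recovery limbs, and 0.828 to 4.37 CPM (median 2.17) in the 9 control limbs. Adgre1 (F4/80) measured 14.02, 8.43 and 18.04 CPM, against 1.52 to 5.97 CPM (median 4.16) in control. Itgam, the CD11b integrin chain of complement receptor 3, measured 4.71, 3.81 and 6.66 CPM, against 0.371 to 2.83 CPM (median 0.935). In all of these the recovery limbs lay above every control limb, with recovery animal 2 lowest and recovery animal 3 highest. The log2 fold changes were 1.41 ± 0.35 for Cd68, 1.62 ± 0.45 for Adgre1 and 1.404 ± 0.347 for Itgam (± SE). Aif1, which encodes the actin-bundling protein IBA1, had 11.6, 5.57 and 11.7 CPM against 1.13 to 5.09 CPM, again without overlap (log2 1.47 ± 0.39). Lyz2, the secreted lysozyme of macrophages, had 109, 103 and 258 CPM against 29.5 to 88.2 CPM, also without overlap, but with a log2 difference of 1.42 ± 0.43 it did not pass on the deposited values (adjusted p = 0.0511) and passed after rescaling (adjusted p = 0.0261).

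**Figure D2:**
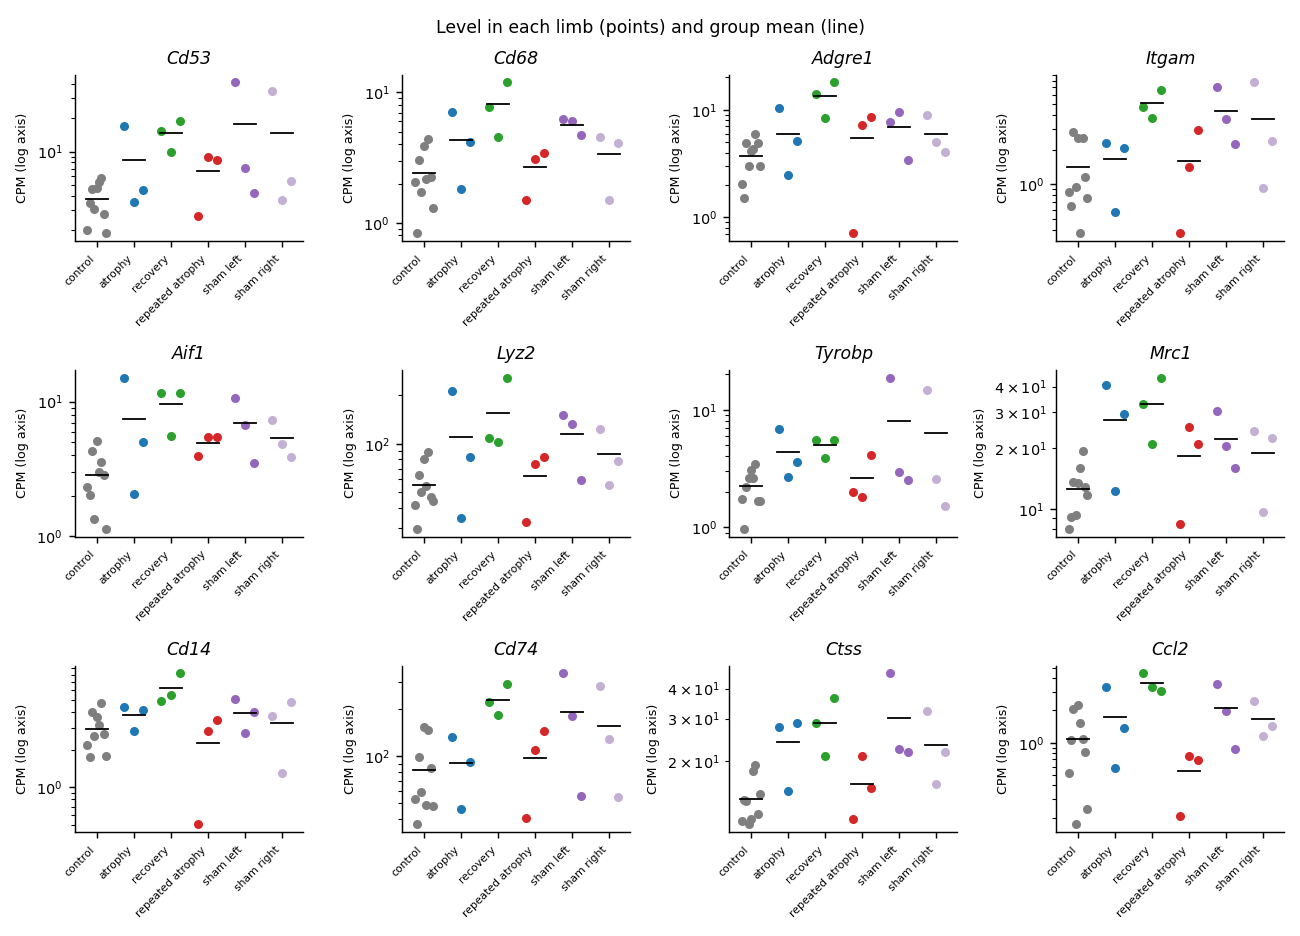
Level in CPM (log axis) in every limb of the 6 groups for the 12 members whose 3 recovery limbs all lay above all 9 control limbs, with a line at each group mean. Every recovery point lies above the control points of its gene, and for Cd53, Tyrobp and Itgam both limbs of sham animal 1 lie above the recovery limbs.

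The pan-leukocyte tetraspanin Cd53 had the largest log2 fold change of the set in recovery, with 15.3, 9.91 and 18.7 CPM against 1.86 to 5.81 CPM (median 3.50) in control (log2 1.74 ± 0.39). Its recovery limbs lay above every control limb. The other pan-leukocyte genes differed less: Ptprc (CD45) by 1.16 (adjusted p = 0.063), the lysosomal protein Laptm5 by 1.03 (adjusted p = 0.0798) and the integrin beta chain Itgb2 by 0.88 (adjusted p = 0.293). Csf1r, the receptor for macrophage colony-stimulating factor, had 48.7, 29.3 and 61.1 CPM in recovery and 10.4 to 44.8 CPM in control, so the groups overlapped in recovery animal 2 and in the right limb of repeated atrophy animal 3. Its log2 difference was 0.97 ± 0.34 (adjusted p = 0.0879, and 0.0471 after rescaling). Spi1 differed by 0.51 (adjusted p = 0.408).

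Of the immunoreceptor adaptors, Tyrobp (DAP12) rose, with 5.57, 3.89 and 5.54 CPM against 0.966 to 3.43 CPM, and its groups did not overlap (log2 0.92 ± 0.26). Fcer1g, the Fc receptor gamma chain, differed by 1.12 ± 0.36 with an adjusted p of 0.0618. Trem2, whose signal passes through Tyrobp, had 0.456, 0.327 and 2.58 CPM and lay within the control range in 2 of 3 recovery limbs. The complement chains, which opsonise debris for uptake, did not pass on either scale: C1qa differed by 0.89 (adjusted p = 0.119), C1qb by 0.68 (adjusted p = 0.168) and C1qc by 0.61 (adjusted p = 0.212).

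Among the scavenger receptors, the mannose receptor Mrc1 rose and the haemoglobin receptor Cd163 did not pass. Mrc1 had 33.0, 20.8 and 44.3 CPM in recovery and 7.98 to 19.3 CPM in control, without overlap (log2 1.29 ± 0.34). Cd163 had 13.4, 9.00 and 17.3 CPM, inside the control range of 5.66 to 18.3 CPM. The log2 ratio of Mrc1 to Cd163 within a limb was 1.12 to 1.31 in recovery and -0.26 to 1.05 in control, so it was higher in each recovery limb than in each control limb. Atrophy limbs had 0.17 to 1.88, a range that includes the recovery values, and repeated atrophy limbs had 0.56 to 1.08. Cd14, the lipopolysaccharide co-receptor, had 4.96, 5.53 and 8.22 CPM, above all control limbs at 1.75 to 4.72 CPM, with a log2 difference of 0.89 (adjusted p = 0.0678, and 0.0388 after rescaling).

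Antigen presentation genes were among the most abundant of those that rose. Cd74, the chaperone of MHC class II, had 221, 183 and 289 CPM against 36.7 to 155 CPM (median 58.9) in control, and Ctss, the protease cathepsin S that trims it, had 28.7, 20.9 and 36.7 CPM against 10.9 to 19.3 CPM (median 13.6). Neither overlapped with control (log2 1.64 ± 0.44 and 0.99 ± 0.23). Cd86 stayed below 1 CPM in all 24 limbs. The monocyte chemokine Ccl2 rose, with 4.45, 3.32 and 3.01 CPM against 0.173 to 2.25 CPM (log2 1.21 ± 0.31), whereas its receptor Ccr2 differed by 0.75 (adjusted p = 0.0845). The T cell gene Cd3e had 1.06, 0.0819 and 1.46 CPM in recovery and 0 to 0.371 CPM in control. Recovery animal 2 lay within the control range and below the level of 3 reads, and the Cd3e call was kept in 5 of 18 fits that left out 1 limb. Counted over the set, 12 members had all recovery limbs above all control limbs, a pattern found for 5.57% of all entries.

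After the first atrophy, 4 members rose and none fell: Gpnmb, Lgals3, Spp1 and Ctss. In this comparison 20.3% of all entries were called higher and 2.33% lower, so the share of members called higher lay below that of the table as a whole. The member median was 0.46 on the log2 scale against 0.22 over all entries, and 32 of 35 members had a positive difference. After rescaling, Gpnmb alone was called higher (log2 2.69, adjusted p = 0.0328) and Ncf1 was called lower (log2 -0.88, adjusted p = 0.024), against 4.53% and 5.16% of all entries. With the animal as a block no member was called (log2 0.64 to 2.03 and adjusted p from 0.228 to 0.307 for the 4 genes), and 0 entries of the table were. The difference of Gpnmb went from 3.06 to 2.03. The random effect fit called 5 members higher and 0 lower, among 2833 and 337 entries.

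Gpnmb (rn7 chr4:78010247-78031492, plus strand), a transmembrane glycoprotein of lysosomes and phagosomes, had 504, 337 and 654 CPM in the atrophy limbs against 6.01 to 254 CPM (median 55.1) in control (log2 3.06 ± 0.80, adjusted p = 0.0138). The groups did not overlap, but the controls spread widely, and the highest was the right limb of atrophy animal 3. Galectin-3 (Lgals3), a sugar-binding protein of phagocytes, had 25.5, 19.7 and 67.4 CPM against 9.27 to 18.3 CPM (log2 1.13 ± 0.32, adjusted p = 0.0183), also without overlap and with atrophy animal 3 far above the other 2. Osteopontin (Spp1) had 5.81, 4.65 and 3.25 CPM against 0.654 to 4.12 CPM, and overlapped in atrophy animal 3 (log2 0.94 ± 0.32, adjusted p = 0.0406). Ctss had 27.7, 15.02 and 28.9 CPM, and overlapped with control in atrophy animal 2 (log2 0.71 ± 0.23, adjusted p = 0.0347). All atrophy limbs above all control limbs was seen for 2 members, Gpnmb and Lgals3, and for 4.75% of all entries.

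The atrophy limbs were uneven. Atrophy animal 1 had 213 CPM of Lyz2, 15.1 CPM of Aif1 and 17.3 CPM of Fcer1g, while animal 2 had 34.6, 2.07 and 4.88 CPM, within the control range for each. Without the left limb of atrophy animal 2, 9 members were called higher than control: Cd68, Mrc1, Tyrobp, Fcer1g, Lyz2, Ctss, Aif1, Gpnmb and Lgals3. Without atrophy animal 1 or animal 3 there were 0, and without the right limb of atrophy animal 1, recovery animal 2 or recovery animal 3 there were 2. The share of all entries called in these fits is not given here, so the counts cannot be read against it.

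After repeated atrophy, 2 members differed from control: Gpnmb rose and Ncf1 fell. The member median was 0.14 against 0.20 over all entries, and 28.1% of entries were called higher and 6.24% lower. Gpnmb had 909, 1039 and 790 CPM, above every other limb of the study, and its log2 fold change was 3.98 ± 0.80 (adjusted p = 0.0012). Ncf1 (rn7 chr12:22485451-22494648, plus strand), which encodes the p47phox subunit of the phagocyte NADPH oxidase, had 4.14, 4.82 and 9.47 CPM against 8.35 to 16.99 CPM (median 11.5) in control. Only the limb of repeated atrophy animal 3 overlapped with control, and the log2 fold change was -0.98 ± 0.23 (adjusted p = 0.0035). Both calls were kept with the animal as a block (Gpnmb 3.48, adjusted p = 0.0146, and Ncf1 -0.81, adjusted p = 0.0258). They were also kept in 17 of 17 alternative analyses and in 18 of 18 fits that left out 1 limb. The block called 3012 entries higher and 794 lower in this comparison, unlike the other group comparisons. After rescaling, C1qc was called lower as well (log2 -0.75, adjusted p = 0.0464), against 13% of entries higher and 12.1% lower.

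The other members of the repeated atrophy limbs lay around control. Cd68 had 1.51, 3.09 and 3.44 CPM, Adgre1 0.712, 7.27 and 8.51 CPM, and Itgam 0.377, 1.42 and 2.98 CPM. Repeated atrophy animal 1 was the lowest of the 3 for each of these, and for Cd74, Itgb2, Cybb, Cd14 and Cd4. Msr1, Ccr2 and Cd86 were listed at 0 in that limb. Cybb, the gp91phox partner of Ncf1 in the oxidase, had 0.0419, 0.674 and 1.79 CPM against 0.23 to 2.87 CPM in control and did not pass.

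**Figure D3:**
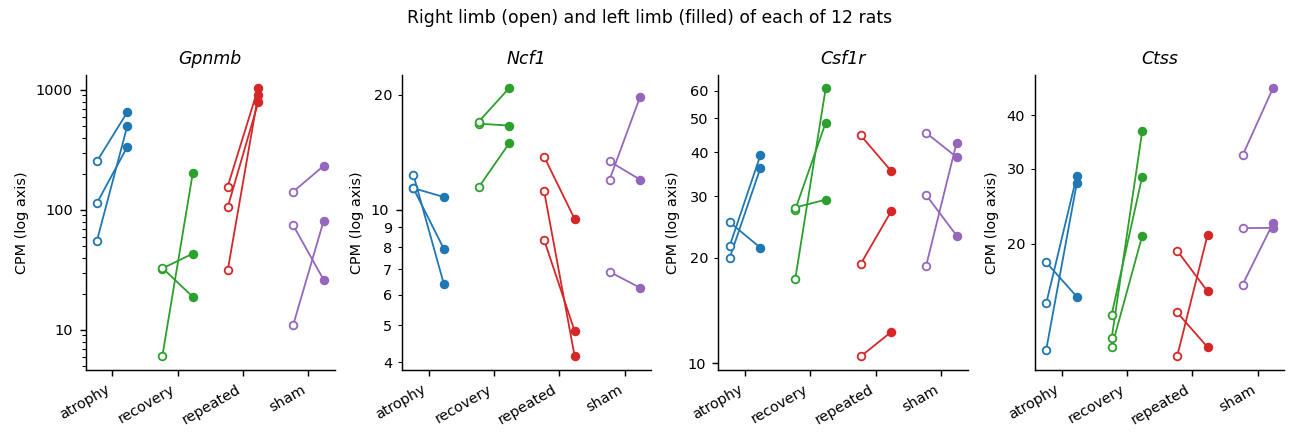
Level in CPM (log axis) of Gpnmb, Ncf1, Csf1r and Ctss in the right and left limb of each of the 12 rats, joined by a line per animal. Gpnmb lines rise in all 3 repeated atrophy and all 3 atrophy rats, and Ncf1 lines fall in the same rats.

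Compared directly with recovery, the repeated atrophy limbs had 8 members lower and 1 higher. The lower genes were Cd68, Itgam, C1qc, Cd14, Ctss, Ncf1, Ccl2 and Cd4, with adjusted p from 0.0026 to 0.0493, and the higher gene was Gpnmb. Over all entries 6.29% were called lower and 21% higher, and the median was -0.82 for members against 0.18 for all entries. Among the lower genes Ccl2 had the largest log2 difference, with 0.209, 0.745 and 0.687 CPM after repeated atrophy against 3.01 to 4.45 CPM in recovery (log2 -1.58 ± 0.38, adjusted p = 0.0065). Cd14 had 0.502, 2.84 and 3.44 CPM against 4.96 to 8.22 CPM (log2 -1.27 ± 0.36), and Ncf1 had 4.14 to 9.47 CPM against 14.9 to 20.8 CPM (log2 -1.43 ± 0.28). None of these 3 overlapped between the groups. The T helper co-receptor Cd4, which rat macrophages also carry, had 2.01, 6.49 and 10.6 CPM against 21.8, 8.84 and 26.9 CPM and overlapped in recovery animal 2 (log2 -1.53 ± 0.48). Gpnmb had 43.3, 18.9 and 204 CPM in recovery, and its log2 fold change to repeated atrophy was 4.01 ± 0.98 (adjusted p = 0.0072).

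In this comparison 11 members had all repeated atrophy limbs below all recovery limbs (Cd53, Cd68, Itgam, Aif1, Lyz2, C1qa, C1qc, Cd14, Cd74, Ncf1 and Ccl2), against 10.5% of all entries. After rescaling 19 members were lower and Gpnmb higher, against 11.4% and 10.2% of entries. When each left limb was taken relative to its own right limb no member passed, with adjusted p from 0.154 to 0.411 for the 9 genes. The difference of Gpnmb then went from 4.01 to 1.98 and those of the 8 lower genes ran from -1.37 to -0.85, and 3 entries of the table were higher and 9 lower. The random effect fit called 8 members lower and 1 higher, among 846 and 2820 entries. The number of members called was 3 without recovery animal 3 or without repeated atrophy animal 1, and 4 without recovery animal 1.

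Between recovery and the first atrophy, Ncf1 was higher in recovery and Gpnmb was lower. Ncf1 had 10.8, 7.91 and 6.41 CPM in atrophy, below every recovery limb (log2 0.99 ± 0.28, adjusted p = 0.024). Gpnmb was lower in recovery by 3.09 ± 0.98 on the log2 scale (adjusted p = 0.0366), without overlap, and missed the threshold after rescaling (adjusted p = 0.0627). Over all entries, 3.34% were called higher and 14.5% lower, and the medians were 0.35 for members and -0.19 for all entries. After rescaling Itgam, Cd74 and Ncf1 were higher, against 5.83% of entries, while 4.78% of entries were lower. The share of all entries higher in recovery was 33.5% as deposited and 51.0% after rescaling. With the animal as a block neither gene passed, and the difference of Gpnmb shrank from -3.09 to -0.53 (adjusted p = 0.944) while that of Ncf1 was 0.67 (adjusted p = 0.632). The random effect fit called Ncf1 alone.

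Repeated atrophy and the first atrophy did not differ for any member by limma, and 0 members had an unadjusted p under 0.05 on the deposited values. In all, 5 of 14031 entries were called, or 0.0356%. The rescaled values called 0 members, and 2 members were lower at an unadjusted p under 0.05. The member median was -0.43 against 0.00 over all entries, and 27 of 35 members had a negative difference. Gpnmb was higher in each repeated atrophy limb than in each atrophy limb, but the log2 difference of 0.91 ± 0.98 did not pass. The widest negative difference among members was that of Ccl2, at -0.72 ± 0.38 (adjusted p = 0.85).

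Left and right limbs of the same rat were also set side by side. Among the 3 recovery rats, 21 members were higher on the left in every rat and 0 were lower in every rat, against 29.8% and 14.9% of all entries. The 35 members were higher on the left for 29, 25 and 34 genes in recovery animals 1, 2 and 3, with medians of 0.72, 0.20 and 1.45 on the log2 scale. Among the atrophy rats the members split by animal: 34 were higher on the left in animal 1 and 31 in animal 3, but 12 in animal 2, with medians of 1.17, 0.81 and -0.18. In the atrophy rats, 10 members were higher in all 3 animals and Ncf1 was lower in all 3, against 25.5% and 7.59% of entries. In the repeated atrophy rats 17, 30 and 15 members were higher on the left (medians -0.10, 0.51 and -0.09), and 7 were higher and 3 lower in all 3 rats, against 40.6% and 13.5% of entries. The 3 lower genes were C1qc, Cybb and Ncf1. After rescaling the balance turned, with 4 members higher and 7 lower in all 3 repeated atrophy rats, against 25.4% and 24.8% of entries, and 15, 21 and 9 members higher on the left (medians -0.15, 0.17 and -0.30). In the atrophy and recovery rats the rescaled counts stayed at 10 and 1, and at 21 and 0, against 16.1% and 15.4%, and 22.7% and 23.5% of entries.

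Gpnmb was higher on the left by 3.17, 1.56 and 1.36 on the log2 scale in the atrophy rats and by 4.82, 2.72 and 2.89 in the repeated atrophy rats. In the recovery rats the differences were 0.40, -0.77 and 4.87, with recovery animal 3 far from the other 2. In the sham rats they were -1.48, 2.78 and 0.71. Limbs with no TTX therefore differed in Gpnmb by up to 2.78 within an animal. Ncf1 was lower on the left by 1.24, 0.68 and 0.50 in the repeated atrophy rats and by 0.07, 0.48 and 0.85 in the atrophy rats.

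**Figure D4:**
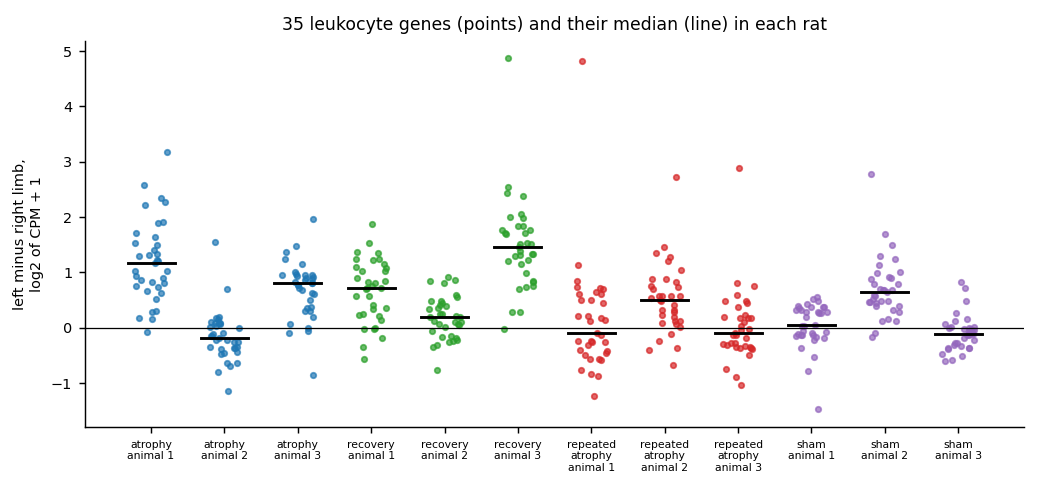
Left minus right difference in log2(CPM + 1) of the 35 members in each of the 12 rats, with the median per rat marked. Medians are 0.72, 0.20 and 1.45 in the recovery rats and -0.10, 0.51 and -0.09 in the repeated atrophy rats. The median of atrophy animal 2 is -0.18, against 1.17 and 0.81 in the other 2 atrophy rats, and single members such as Gpnmb and Spp1 lie higher in animal 2 than in animal 3.

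Sham surgery without TTX gave no call. Left sham limbs against the 9 control limbs had 0 members called and 0% of 13822 entries, but 18 members had an unadjusted p under 0.05, as did 1904 entries, and the member median was 0.70 against 0.17 over all entries. Ctss came closest, with 46.4, 22.4 and 21.8 CPM in the left sham limbs, all above the highest control limb (log2 1.00 ± 0.24, adjusted p = 0.176). Cd68 had 6.21, 6.02 and 4.68 CPM, also above every control limb (log2 1.03 ± 0.29, adjusted p = 0.247). Left against right limb in the sham rats had 0 members called and 0% of 13483 entries, with 1 member and 576 entries at an unadjusted p under 0.05, and medians of 0.23 and 0.02. In all 3 sham rats 8 members were higher on the left and 2 lower, against 14.5% and 8.97% of entries. Sham animal 1 was the outlying animal on both sides, with Cd53 at 41.9 and 34.5 CPM, Laptm5 at 70.9 and 69.1 CPM and Itgb2 at 46.0 and 50.7 CPM on the left and right, against at most 18.7, 26.9 and 11.2 CPM in any limb of the TTX rats. Without it, the member median of the left sham limbs against control was 0.48, against 0.14 over all entries, and no member was called. The differences of Ctss and Cd68 were then 0.66 and 0.97, and the medians of left against right sham limbs were 0.25 for members and 0.04 for all entries. Without sham animal 2, 1 member, Lgals3, was called higher in the left sham limbs.

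The proportions among members were not the same in each group. The log2 ratio of Gpnmb to Csf1r within a limb was 3.77 to 4.03 in atrophy and 4.44 to 6.10 in repeated atrophy, against -1.39 to 3.49 in control and -0.61 to 1.72 in recovery. The atrophy and repeated atrophy limbs were thus above every control and recovery limb. The ratio of C1qa to Csf1r overlapped among all groups, with -0.73 to -0.14 for control limbs, -0.82 to -0.49 for atrophy limbs, -0.63 to -0.51 for recovery limbs, -0.95 to -0.11 for repeated atrophy limbs, -0.91 to 0.55 for left sham limbs and -0.65 to 0.14 for right sham limbs. Cd163 to Csf1r was -1.79 to -1.60 for recovery limbs and -1.48 to -0.57 for control limbs, without overlap. The recovery values overlapped with atrophy limbs (-1.70 to -0.59) and lay inside the range of left sham limbs (-1.90 to -0.40), while repeated atrophy limbs had -1.39 to -1.17 and right sham limbs -1.35 to -0.18.

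Other genes of the same pathways, taken from lists drawn up for this purpose, were counted in the same way, and in recovery are to be read against 4.4% of all entries higher and 3.33% lower. Of 29 further pan-leukocyte genes tested, 8 rose and 0 fell, including Evi2b at 1.49, the actin-bundling L-plastin Lcp1 at 1.38 and Cytip at 1.30 on the log2 scale. Of 38 further myeloid receptors and kinases 7 rose, including the pore-forming Mpeg1 (2.18), Clec4a1 (1.54) and the Toll-like receptor Tlr2 (1.53). Of 20 MHC class II and dendritic cell genes 6 rose, led by the class II chains RT1-Da (1.96), RT1-Ba (1.94) and RT1-Bb (1.73), which belong to a family of similar genes among which reads may have been split. Of 21 tissue-resident macrophage genes 7 rose, among them F13a1, Ccl6 and Folr2, and 1 fell. Inflammatory monocyte and cytokine genes rose for 7 of 29, but the leading genes S100a4 (2.14), Fn1 and Vcan are a calcium-binding protein and matrix proteins that fibroblasts make too. S100a4 also rose in atrophy (log2 1.00) and in repeated atrophy (1.77), and with the block it passed in repeated atrophy (adjusted p = 0.0157) but not in recovery (adjusted p = 0.102). In atrophy it passed neither after rescaling (adjusted p = 0.117) nor with the block (adjusted p = 0.245). T and NK cell markers rose for 4 of 27, and B and plasma cell markers for 3 of 10 with 1 lower. Neutrophil markers (12 tested), growth and recruitment ligands (16) and the 5 other NADPH oxidase genes had 0 calls in recovery, and mast cell and eosinophil markers had 1 of 10 lower. The lysosomal, lipid and phagocytic list had 9 of 36 higher and 2 lower. After rescaling, when 6.28% of all entries were higher and 5.82% lower, the myeloid receptors had 13 higher and the MHC class II list 10. The other NADPH oxidase genes then had 1 higher, the growth and recruitment ligands 1 higher and 1 lower, and the mast cell and eosinophil markers 1 higher and 1 lower. The other lists differed from their deposited counts by at most 1 in each direction. With the animal as a block, 0 genes of these lists were called in recovery.

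In repeated atrophy against control, the lysosomal, lipid and phagocytic list held most calls, with 16 of 36 genes higher and 1 lower, against 28.1% and 6.24% of all entries, among them the fatty acid-binding protein Fabp5 (3.27), the lipid droplet coat Plin2 (3.19) and cathepsin L, Ctsl (2.46). After rescaling it had 8 higher and 3 lower, against 13% and 12.1% of entries. In the first atrophy 13 of the 36 rose, against 20.3% of all entries, with the same 3 genes leading at 2.34, 2.05 and 2.12, and after rescaling 7 were higher and 1 lower, against 4.53% and 5.16% of entries. With the animal as a block 14 of the 36 were higher and 0 lower in repeated atrophy, and 0 were called in the first atrophy. Many genes of this list, Fabp5, Plin2 and Ctsl included, are also made by muscle fibres. Of the 38 further myeloid receptors and kinases, 6 rose in atrophy and 3 in repeated atrophy with 0 lower, and after rescaling 2 were higher in atrophy and 1 was higher and 1 lower in repeated atrophy. Sirpa, an inhibitory receptor of myeloid cells, was among them, at 1.94 in atrophy and 3.15 in repeated atrophy, and with the block it was called in repeated atrophy (2.93, adjusted p = 0.0056) but not in atrophy (adjusted p = 0.166). Its mean was 15.9 CPM in control and 146 CPM in repeated atrophy. The macrophage genes Csf1r (23.8 and 24.9 CPM) and Cd68 (2.40 and 2.68 CPM) did not rise with it there. Which cells made Sirpa was not tested. Of the tissue-resident genes, 1 rose and 4 fell in repeated atrophy, including the transcription factor Maf (-0.94), and after rescaling 0 were higher and 7 lower. With the block 0 were higher and 3 lower, Maf among them. Also in repeated atrophy, the inflammatory list had 2 of 29 higher and 0 lower (block 3 and 0), the T and NK cell markers 3 of 27 higher and 1 lower (block 2 and 1), the MHC class II and dendritic cell list 3 of 20 higher and 2 lower (block 2 and 2) and the neutrophil markers 1 of 12 higher (block 1). After rescaling these were 1 and 1, 2 and 2, 2 and 2, and 1 and 0. The T cell genes Cd5 (log2 1.32) and Cd28 (1.29) rose and Foxp3, the transcription factor of regulatory T cells, fell (-1.49), with adjusted p of 0.0162, 0.0111 and 0.0087 under the block. The T cell chain Cd3e did not follow them, with a mean of 0.239 CPM in repeated atrophy and 0.210 CPM in control. Whether T cells were the source of these differences was not tested. Cd1d1, which presents lipid antigens, fell by 3.13 (0.0023 under the block), and the neutrophil gene S100a8 rose by 0.98 (0.0077 under the block). Cd1d1 was also called lower in the first atrophy (log2 -1.97, and -2.32 after rescaling), but not with the block (adjusted p = 0.149). In repeated atrophy, pan-leukocyte genes, B and plasma cell markers, and mast cell and eosinophil markers had 1 gene higher each. After rescaling none of these was higher, and 1 pan-leukocyte gene and 1 mast cell and eosinophil marker were lower. From recovery to repeated atrophy, 5 of 29 pan-leukocyte genes, 7 of 38 myeloid receptors and 5 of 21 tissue-resident genes were lower, with 0, 1 and 0 higher, against 6.29% of all entries lower and 21% higher. After rescaling, 12 genes of each of these 3 lists were lower, against 11.4% of entries, with 0, 1 and 0 higher. With the block 0 genes of these 3 lists were called between recovery and repeated atrophy. Other lists held called genes both ways in this comparison. Those higher included Ctsl (log2 2.96), Fabp5 (2.86), Cd63 (2.80), Cebpb (1.45) and Cst3 (1.31). Those lower included Cd1d1 (-2.94), Fn1 (-1.79), RT1-DMb (-1.54) and Vcan (-1.14). All of these named genes passed after rescaling and none passed with the block.

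Markers of other cell types moved with the same groups. Their counts are to be read against the shares of all entries. As deposited, 20.3% were higher and 2.33% lower in atrophy, 4.4% and 3.33% in recovery, and 28.1% and 6.24% in repeated atrophy. From recovery to repeated atrophy they were 21% and 6.29%. After rescaling these shares were 4.53% and 5.16%, 6.28% and 5.82%, 13% and 12.1%, and 10.2% and 11.4%. In recovery 7 of 12 fibroblast and fibro-adipogenic progenitor markers rose, led by the collagens Col3a1 (3.45), Col1a1 (3.07) and Col1a2 (2.75). Their sum was 1639 to 2948 CPM in recovery limbs and 516 to 1214 CPM in control, and 7 of 12 were lower again in repeated atrophy against recovery. Of 12 endothelial markers 2 fell in recovery, Cldn5 and Esam. Summed fibre markers were 139732 to 173671 CPM in repeated atrophy against 222189 to 293627 CPM in control, with Myh7, Actn3 and Atp2a1 called lower and Mb (myoglobin) called higher among 13 markers. After rescaling Mb was not called higher. In the first atrophy Actn3 (log2 -2.11) and Myh7 (-1.62) were called lower, and both calls were kept after rescaling. Of 9 satellite cell markers, 3 were higher and 0 lower in atrophy, and 3 were higher and 2 (Cdh15 and Heyl) lower in repeated atrophy, where 28.1% of all entries were higher. After rescaling these were 2 and 0, and 2 and 2. In recovery Vcam1 was called higher (log2 1.01) and Cdh15 lower (-1.09), and both calls were kept after rescaling. Schwann cell, pericyte and smooth muscle, and red blood cell markers had 0 calls against control in any TTX group, adipocyte markers had 0, and tendon markers had 1 gene higher in each. After rescaling, 8 of 12 endothelial markers were lower in repeated atrophy, against 1 on the deposited values, and pericyte and smooth muscle markers had 1 of 11 lower in atrophy and 2 in repeated atrophy. On the rescaled values the tendon gene called in atrophy (Scx) was not called (adjusted p = 0.115), 1 endothelial and 2 fibroblast markers were lower in atrophy, and fibroblast markers had 8 higher in recovery and 9 lower in repeated atrophy against recovery. With the animal as a block, 0 markers of any of these cell types were called in atrophy, in recovery or between recovery and repeated atrophy. In repeated atrophy against control the block called Mb and Scx higher and Myh7 and Actn3 lower, 2 satellite cell markers higher and 2 lower, and 3 pericyte and smooth muscle markers lower. The part of these cell types in the member differences was not tested.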

How the data were processed

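RNA-seq libraries (directional, poly-A selected) from 24 TA muscles of 12 rats were analysed from the table that the authors deposited. Its values are counts-per-million (CPM) per entry, made by the authors in Partek Flow with STAR alignment to the rn7 build, and per the labels and the submitters' processing notes contaminant reads were filtered with Bowtie2 2.2.5. The study names DESeq2's median of ratios as its normalisation, while each deposited column scaled as CPM. The annotation and counting step were not given in the sources used here. Of 27 value columns, 3 were not matched to a sample by name and were not used. The table held 14271 entries, 28 of which were exact duplicates, leaving 14243 for 13458 symbols, 513 of them with several entries. Low values, up to 20 reads, were not all whole multiples of the lowest step (89.6 to 91.5% lay within 0.1 of one), so whole reads were not recovered and no count test was run. The implied depth and the level of 3 reads cover counting error only.

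Groups came from the labelled limb, condition and time point. The 35 members and all gene lists were chosen with earlier results of these data known, so no list is independent evidence. Differences were fitted with limma 3.58.1 in R 4.3.3 with an intensity trend on log2(CPM + 1), over entries above 0 in at least 3 limbs. The 18 limbs of the TTX rats shared 1 fit (14031 entries), left sham against control used 12 limbs (13822 entries), and left against right sham used 6 limbs with the animal as a block (13483 entries). Calls needed a fold change of 1.2 and a Benjamini-Hochberg adjusted p of 0.05. Genes named beyond the members were the up to 3 called genes of each list with the largest change and a mean of at least 1 CPM, and 1 such gene is not reported here. Mb and Heyl were named after their values were seen. Each limb is 1 muscle, so the spread is between animals, but the controls are the other limbs of the TTX rats.

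Both limbs of a number come from the same rat. Over entries with a mean of at least 1 CPM, the deviations of left and right limbs from their group means correlated with a mean r of 0.118 (range -0.321 to 0.530, 3 of 9 negative) in the TTX rats and 0.745 (0.618 to 0.841) in the sham rats, and limma's consensus correlation within animals was 0.108. The pairing comes from the design, so a fit with the animal as a block is given beside the members' calls it changes, and for the gene lists as counts. In that fit a difference between left limbs is a difference of left minus right differences. In each fit, rescaling used the median of ratios over entries above 0 in all limbs of that fit. For the left minus right differences within rats it used the 11397 entries above 0 in all 24 limbs. The scripts were tested on simulated data. Other alternatives were pseudocounts of 0.1 and 10, a trimmed mean rescaling, filters, limma options, other control limbs and leaving out each limb. Promoters were searched with Python 3.11.15.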

Additional observations from a re-analysis of the deposited data

Results flagged for a closer look

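In the 9 control limbs, 4 of 35 members had 1 limb far from the others by Dixon's test, which chance alone does in about 1 in 20 groups. Csf1r was 44.8 CPM, C1qc 32.3 CPM and Cx3cr1 0.390 CPM in the right limb of repeated atrophy animal 3, with the nearest other control limbs at 27.8, 20.6 and 0.163 CPM. Fcer1g was 12.0 CPM in the right limb of atrophy animal 2, with the nearest at 5.09 CPM.

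The differences between 2 TTX groups that passed the limma test of the difference itself numbered 11. From atrophy to recovery these were Ncf1 (0.99 on the log2 scale) and Gpnmb (-3.09). From recovery to repeated atrophy they were Cd68 (-1.27), Itgam (-1.33), C1qc (-0.997), Ctss (-0.82), Cd14 (-1.27), Ncf1 (-1.43), Gpnmb (4.01), Cd4 (-1.53) and Ccl2 (-1.58). With the animal as a block none of them passed, with adjusted p from 0.154 to 0.944. As a random effect, the animal left 1 member called between atrophy and recovery and 9 between recovery and repeated atrophy.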

How the results depend on the processing

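The comparison of repeated atrophy with control kept both calls, Gpnmb higher and Ncf1 lower, under all 17 alternatives and all 18 leave-outs, and the other comparisons did not. Against 4 members called after atrophy on the deposited values, there were 2 after median of ratios rescaling, 2 after trimmed mean rescaling, 2 with the 12 right limbs as control (sham animal 1 included), 0 with only a rat's own right limbs as control, 0 with the animal as a replicate block, 0 with the block and rescaling together, and 2 after rescaling without repeated atrophy animal 1. For recovery (11 called) these were 18, 18, 6, 0, 0, 0 and 19, and 18 after rescaling without atrophy animal 2. For repeated atrophy against recovery (9 called) rescaling gave 20, the trimmed mean 20, own right limbs 0, the block 0, the block with rescaling 0, and rescaling without atrophy animal 2 gave 20. For recovery against atrophy (2 called) there were 4 at a mean of at least 1 CPM, 0 with own right limbs, 0 with the block, 0 with the block and rescaling, 1 with the animal as a random effect, 1 after rescaling without atrophy animal 2 and 8 after rescaling without repeated atrophy animal 1. For repeated atrophy against control (2 called) the block with rescaling gave 4, and there Cd9, at 0.15 on the deposited values, was -0.52 ± 0.14 (limma adjusted p = 0.0287), which is the 1 reversed direction among members called in either fit. The 2 rescalings that leave out a left limb were chosen after seeing the data. At a pseudocount of 0.1, the recovery calls of Adgre1, Tyrobp, Cd3e and Ccl2 were lost. Those of Cd68 and Itgam in repeated atrophy against recovery were lost too. At a pseudocount of 10, the calls of Spp1 in atrophy, Cd3e in recovery and C1qc in repeated atrophy against recovery were lost. The Tyrobp call in recovery was kept in 10 of 18 fits that left out 1 limb. The animal as a random effect gave 5 members after atrophy, 12 after recovery and 9 for repeated atrophy against recovery. The block changed no call against control after repeated atrophy, and it has fewer residual degrees of freedom; the cause of the other changes was not tested.

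Leaving out each limb in turn gave 0 to 9 members called after atrophy, 0 to 15 after recovery, 2 to 2 after repeated atrophy, 0 to 4 for recovery against atrophy, 3 to 12 for repeated atrophy against recovery, 0 to 0 for repeated against first atrophy, 0 to 1 for left sham against control and 0 to 0 between sham limbs. The shares of all entries called in these leave-outs are not given here. Depth limits Cd3e, Cx3cr1, Cd86 and Trem2, which lay near the level of 3 reads in several limbs. A count test was not run, because whole reads were not recovered.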
